A study of Rattus norvegicus with 4 samples.

Results

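The expression of 10 genes of the antioxidant defense was described in the colon of rats with and without mesenchymal stem cell transplantation (MSCT). These were *Sod1*, *Sod2*, *Cat*, *Gpx1*, *Gpx2*, *Gclc*, *Gclm*, *Txnrd1*, *Nqo1* and *Hmox1*. Each was taken as the deposited row whose RefSeq accession maps to that symbol. All 10 had exactly 1 such row with a value on all 4 arrays, out of 18350 measured rows, which hold 6963 named genes. The arrays carried colon RNA of male Sprague Dawley rats, with 2 arrays of the control group, without transplantation, and 2 of the MSCT group. Each array was taken as 1 rat, and all were labeled with Cy3 alone. The paper does not say whether RNA of several rats was pooled. In the MSCT group, colitis had been induced with TNBS (2,4,6-trinitrobenzene sulfonic acid), which was given into the colon in ethanol, and GFP-labeled mesenchymal stem cells had been infused into the tail vein on the following day. The sample descriptions call the control animals normal rats, whereas the paper and part of the series text call them rats with inflammatory bowel disease (IBD), and the paper places the chips at different days in its Methods and Results. A difference between the groups can therefore hold the colitis, the transplantation or both, which cannot be told apart here. Ages were not given, and pieces of whole colon tissue hold several cell types.

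Oxygen radicals are cleared in steps. Superoxide dismutases turn superoxide into hydrogen peroxide, and catalase and the glutathione peroxidases remove the peroxide, the latter at the expense of glutathione. The transcription factor Nrf2 (encoded by *Nfe2l2*) is held back by Keap1 in unstressed cells, and once released it binds antioxidant response elements and switches on genes of glutathione synthesis, thioredoxin reduction, quinone reduction and heme breakdown. In the colon these enzymes protect an epithelium that lies next to bacteria and, in colitis, next to phagocytes that release oxidants.

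The core of the antioxidant response element, TGACNNNGC, was searched on both strands of the RefSeq promoters (build GRCr8, 250 bases before to 50 bases after each start). Promoters were found for 9 of the 10 genes, with 2 for *Txnrd1* and none for *Hmox1*. The core was present in 4 of the 9 genes, against 13.1% of the 27457 genes with a promoter in the table. The 4 matches all lay on the strand opposite to the gene. They are shown because they are the Nrf2 core letters in the promoters of genes described here, each read 5′ to 3′ on the strand of the gene with up to 20 bases on either side, ending at the start site, and with the match in capitals. *Gclm* is at chr2:213031943-213031991 (plus strand), *Gpx2* at chr6:101230034-101230066 (minus strand), *Txnrd1* at chr7:22755954-22756002 (minus strand) and *Sod2* at chr1:50050175-50050223 (minus strand).
Gclm: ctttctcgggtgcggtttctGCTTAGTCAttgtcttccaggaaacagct
Gpx2: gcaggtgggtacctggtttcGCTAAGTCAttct
Txnrd1: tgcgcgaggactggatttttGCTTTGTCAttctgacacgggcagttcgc
Sod2: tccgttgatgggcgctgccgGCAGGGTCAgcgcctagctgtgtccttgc

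*Gclc* and *Nqo1*, the genes with the largest differences between the groups below, had no match in this window. Their 250 bases before the start are shown in lower case throughout, for *Gclc* at chr8:87510226-87510475 (plus strand) and for *Nqo1* at chr19:52220268-52220517 (minus strand). A match is a match of letters only, and its absence says nothing on elements outside this window.
Gclc: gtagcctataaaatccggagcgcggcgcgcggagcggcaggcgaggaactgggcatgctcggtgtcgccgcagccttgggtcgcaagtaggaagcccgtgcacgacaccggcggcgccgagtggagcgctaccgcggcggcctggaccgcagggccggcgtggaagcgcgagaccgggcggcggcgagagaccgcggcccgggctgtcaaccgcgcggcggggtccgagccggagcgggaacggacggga
Nqo1: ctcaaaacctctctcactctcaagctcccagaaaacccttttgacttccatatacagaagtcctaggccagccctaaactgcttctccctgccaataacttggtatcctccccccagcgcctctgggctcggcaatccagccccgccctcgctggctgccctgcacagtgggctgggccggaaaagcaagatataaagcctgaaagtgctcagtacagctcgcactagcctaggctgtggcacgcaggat

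Expression of 7 of the 10 genes was higher and of 3 lower in the MSCT group than in the control group, and 48.0% of all rows were higher. The median of the 10 log2 differences was 0.27, where that of all 18350 rows was -0.019. *Nqo1* and *Cat* were higher and *Gclc* was lower at an unadjusted p under 0.05 by limma, which fits a linear model to each row and moderates its variance with that of the other rows. These 3 of 10 genes compare with 12.0% of all rows (4.80% higher and 7.17% lower) and with 9.94% of the brighter 50% of rows (4.60% higher and 5.34% lower), in which 9 of the 10 genes lay. The paper screened for a change of more than 2-fold with p below 0.05, taken here without adjustment. With the limma p, 850 rows or 4.63% of all rows passed this screen (2.12% higher and 2.51% lower), and 0 of the 10 genes. With the methods' t-test in its place 388 rows passed, which equals the number of genes given in the paper, and again 0 of the 10 genes. None of the 10 passed an adjusted p of 0.05 over all rows by limma, as no row did (0%). Control and MSCT arrays were fully separate in 9 of the 10 genes, 7 higher and 2 lower, against 45.8% of all rows (21.3% higher and 24.5% lower). The replicates of these genes were close, with a median SD within groups of 0.15 on the log2 scale, against 0.24 over all rows and 0.16 over the brighter 50%. Over all rows, the log2 values of control replicate 2 correlated slightly better with MSCT replicate 2 (0.959) than with control replicate 1 (0.953). The 2 MSCT arrays correlated at 0.964. The smallest two-sided p of an exact permutation test of 2 against 2 arrays is 0.333, and each limma p therefore rests on the moderated variance. The p-values measure only the spread between these arrays.

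**Figure D1:**
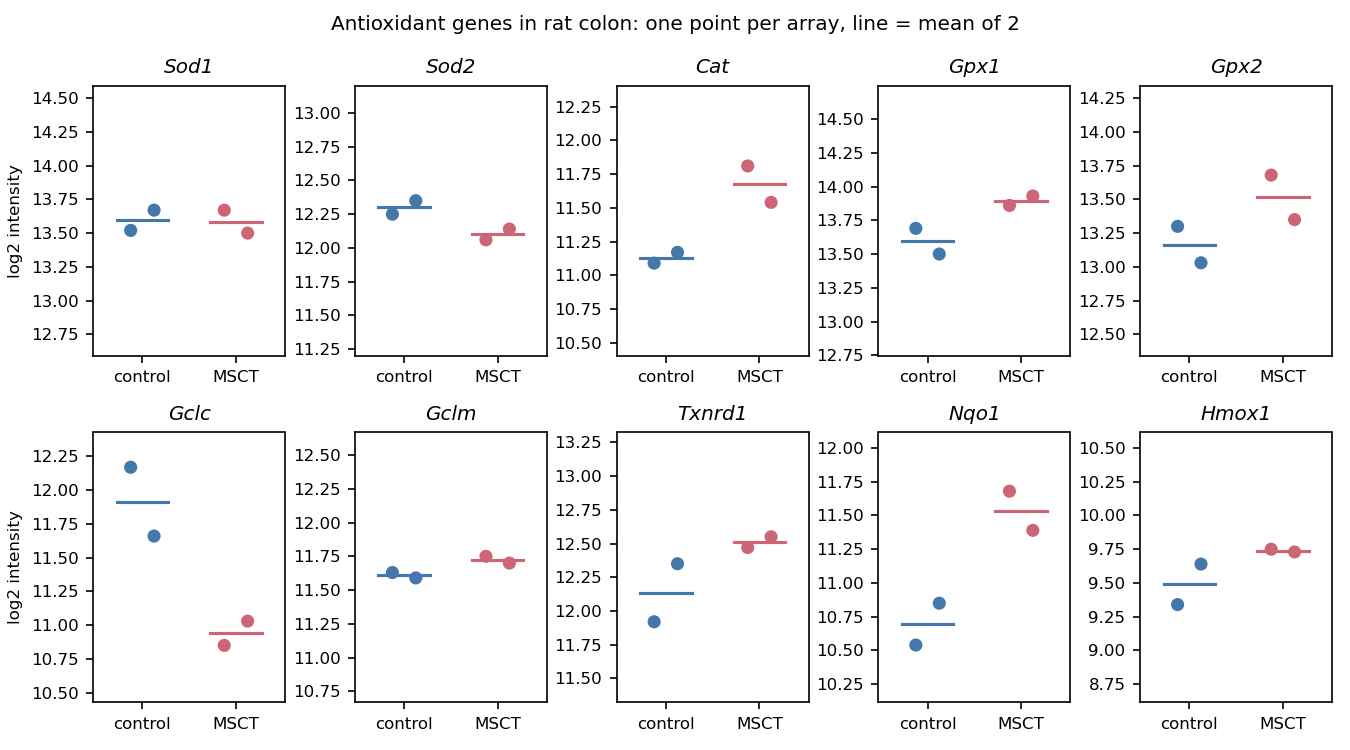
Log2 intensity (vertical axis) of each of the 10 genes in the control (blue) and MSCT (red) arrays. Each point is 1 array and each line the mean of 2, and every panel spans 2 log2 units. In *Gclc* both MSCT arrays (10.85 and 11.03) lay below both control arrays (12.17 and 11.66), and *Sod1* is the gene in which the groups overlapped.

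Of the dismutases, *Sod1* (NM_017050) encodes the cytosolic copper and zinc enzyme. The control arrays gave log2 intensities of 13.52 and 13.67, and the MSCT arrays of 13.67 and 13.50. The groups overlapped, and the difference was -0.01 (95% interval -0.53 to 0.51). *Sod2* (NM_017051), which encodes the manganese enzyme of mitochondria, was at 12.25 and 12.35 in the control group and at 12.06 and 12.14 in the MSCT group. Both MSCT arrays were below both control arrays, by a small difference of -0.20 (standard error 0.19; adjusted p = 0.695 by limma). With any single array left out, the difference of *Sod2* stayed between -0.25 and -0.15, whereas that of *Sod1* changed sign.

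Catalase, encoded by *Cat* (NM_012520), breaks down hydrogen peroxide in peroxisomes without using glutathione. *Cat* was at 11.09 and 11.17 in the control group and at 11.81 and 11.54 in the MSCT group. The MSCT arrays lay above the control arrays, by 0.55 on the log2 scale or 1.46-fold (standard error 0.20; adjusted p = 0.418 by limma). The unadjusted p was just below the threshold, and it was above 0.05 with any 1 of the 4 arrays left out (difference from 0.41 to 0.68).

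The glutathione peroxidases are selenoenzymes, of which *Gpx1* (NM_030826) is expressed in nearly all cells and *Gpx2* (NM_183403) mainly in the epithelium of the gut. *Gpx1* was at 13.69 and 13.50 in the control group and at 13.86 and 13.93 in the MSCT group. *Gpx2* was at 13.30 and 13.03 in the control group and at 13.68 and 13.35 in the MSCT group. Both genes were slightly higher on both MSCT arrays. The differences were 0.30 for *Gpx1* (95% interval -0.21 to 0.81) and 0.35 for *Gpx2* (95% interval -0.26 to 0.96), with adjusted p-values of 0.581 and 0.59 by limma. The 2 control arrays of *Gpx2* were 0.27 apart and its MSCT arrays 0.33 apart, close to the difference itself.

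Glutamate-cysteine ligase, the rate-limiting enzyme of glutathione synthesis, has a catalytic subunit encoded by *Gclc* (NM_012815) and a modifier subunit encoded by *Gclm* (NM_017305). *Gclc* was at 12.17 and 11.66 in the control group and at 10.85 and 11.03 in the MSCT group. Both MSCT arrays were far below both control arrays, although the control arrays differed from each other by 0.51. The difference was -0.97 on the log2 scale (standard error 0.26; 95% interval -1.65 to -0.29), 1.96-fold lower and so just short of the limit of the screen (adjusted p = 0.33 by limma). With single arrays left out it was from -1.23 to -0.72, and the unadjusted p was above 0.05 without MSCT replicate 1 (-0.88). More than 2-fold were the differences without control replicate 2 (-1.23) and without MSCT replicate 2 (-1.07).

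The modifier subunit was not lower in the MSCT group. *Gclm*, the gene of the 10 with the closest replicates, was at 11.63 and 11.59 in the control group and at 11.75 and 11.70 in the MSCT group. The MSCT arrays lay just above the control arrays, by 0.12 (95% interval -0.36 to 0.60; adjusted p = 0.814 by limma). Within each array, the log2 ratio of the *Gclc* to the *Gclm* signal was 0.54 and 0.07 in the control group and -0.90 and -0.67 in the MSCT group. The ratio was thus lower on both MSCT arrays, by 1.09 in the means, which are 0.31 ± 0.33 (SD, n = 2) and -0.79 ± 0.16 (SD, n = 2). The exact permutation test gave a two-sided p of 0.333, the smallest it can give here. This ratio was chosen after the values were seen, and it compares changes, since the probes of different genes do not give comparable levels.

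*Nqo1* (NM_017000) encodes a quinone reductase and is a standard readout of Nrf2 activity. Its log2 intensity was 10.54 and 10.85 in control rats against 11.68 and 11.39 in MSCT rats. The groups were well apart, and the difference of 0.83 (standard error 0.23; 95% interval 0.22 to 1.45), or 1.78-fold, was larger than the gaps of 0.31 and 0.30 between the replicates of either group (adjusted p = 0.338 by limma). The difference was 0.69 without MSCT replicate 1 and 0.68 without control replicate 1, and in both the unadjusted p was above 0.05.

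*Txnrd1* (NM_031614), which encodes the cytosolic thioredoxin reductase, was at 11.92 and 12.35 in the control group and at 12.47 and 12.55 in the MSCT group. The difference was 0.38 (95% interval -0.24 to 0.99; adjusted p = 0.567 by limma), and it was 0.16 without control replicate 1, the array that lay lowest. *Hmox1* (NM_012580) encodes heme oxygenase 1, which breaks down heme and is made by epithelium and macrophages under stress. It was at 9.34 and 9.64 in the control group and at 9.75 and 9.73 in the MSCT group. The MSCT arrays were nearly equal and above both control arrays, by 0.24 in the means (95% interval -0.31 to 0.79; adjusted p = 0.668 by limma), and by 0.09 without control replicate 1.

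**Figure D2:**
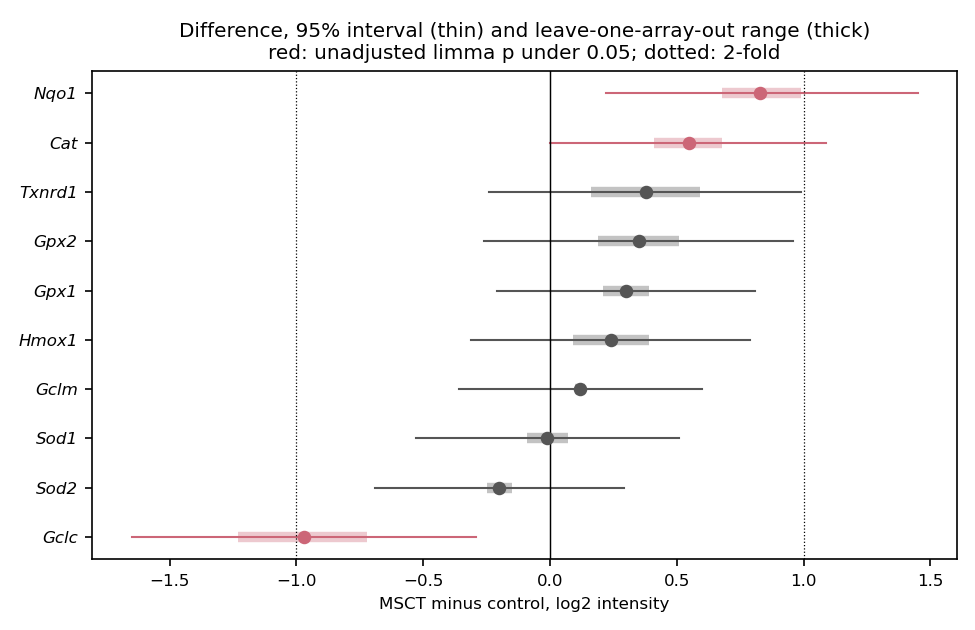
Difference of the MSCT from the control group on the log2 scale (horizontal axis) for the 10 genes. Points are differences, thin lines 95% intervals and thick bars the range with each array left out, and red marks an unadjusted limma p under 0.05. *Nqo1* (0.83) and *Gclc* (-0.97) lie at opposite ends, both inside the dotted lines at 2-fold.

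The other genes of the pathway were taken by role in 10 lists with 138 genes, of which 99 had a measured row. Of these, 11 were higher and 2 lower in the MSCT group at an unadjusted p under 0.05 by limma (13.1%, against 12.0% of all rows), and 5 of the 11 belonged to the list of oxidant-producing enzymes. The median difference over the 99 genes was 0.09. *Gpx3*, *Ephx1* and *Ncf1* were the 3 of the 13 that stayed under a p of 0.05 with each array left out in turn, and of these 3 only *Ncf1* also did so by the methods' t-test. Among the 13 the adjusted limma p over all rows was 0.26 or more.

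The regulators of Nrf2 did not differ at the threshold, with 0 of 7 measured genes at an unadjusted p under 0.05 by limma (median 0.07). *Nfe2l2* itself was at 12.49 and 12.77 in the control group and at 12.89 and 12.93 in the MSCT group (difference 0.28, standard error 0.20; adjusted p = 0.622 by limma). *Keap1* overlapped between the groups, at 11.00 and 10.82 against 11.23 and 10.74. The array measures transcripts, whereas Nrf2 is controlled mainly as a protein.

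In glutathione synthesis and recycling, 1 of 8 measured genes was higher at this threshold. *Ggt5*, which encodes a γ-glutamyl transferase that acts on extracellular glutathione conjugates, was at 7.73 and 7.90 in the control group and at 8.59 and 9.08 in the MSCT group (difference 1.02; adjusted p = 0.322 by limma), and was not called without MSCT replicate 2 (0.78) or control replicate 1 (0.94). The glutathione S-transferases, which couple glutathione to toxic compounds, had differences in both directions, 9 of 17 above 0 and 8 below. *Gsta3* was at 6.93 and 6.62 in the control group and at 8.90 and 7.53 in the MSCT group (adjusted p = 0.399 by limma). The row of *Gsta3* is dim, at intensities of 121.5 and 98.53 in the control group, so its fold depends on the unknown background. With the stronger background subtraction the difference of *Gsta3* was 1.80. Its difference of 1.44 was not called without control replicate 1 (1.59), control replicate 2 (1.29) or MSCT replicate 1 (0.75). *Gsta1* was lower, at 9.56 and 9.70 in the MSCT group against 10.34 and 10.09 in the control group (difference -0.59; adjusted p = 0.393 by limma), and was called only as long as MSCT replicate 1 (-0.52), MSCT replicate 2 (-0.66) and control replicate 1 (-0.46) were all kept, and not with the replicate number as a block (-0.59). These genes form a family of similar sequences, and signal shared between their probes could not be separated, so that both are uncertain.

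Of the thioredoxins, peroxiredoxins and related enzymes, 1 of 13 was higher, namely *Prdx6*, a peroxiredoxin that also reduces lipid peroxides. It was at 13.15 and 13.68 in the control group and at 14.20 and 14.08 in the MSCT group (difference 0.73; adjusted p = 0.399 by limma), and was not called without control replicate 1 (0.46), MSCT replicate 1 (0.67) or MSCT replicate 2 (0.79). *Gpx3*, which encodes the secreted glutathione peroxidase, had the largest difference of the 99 genes. It was at 9.12 and 8.35 in the control group and at 10.32 and 10.40 in the MSCT group, 3.09-fold higher (difference 1.63, standard error 0.31; adjusted p = 0.286 by limma). It was the gene called among 8 of its list, which also holds *Gpx4* and *Sod3*.

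The enzymes that supply NADPH for these reductions had no gene of 7 at an unadjusted p under 0.05 by limma (median 0.08). Of 23 quinone, carbonyl and conjugating enzymes, 2 were higher. *Ephx1*, the microsomal epoxide hydrolase, was at 11.21 and 11.75 in the control group and at 12.51 and 12.71 in the MSCT group (difference 1.13, 2.19-fold; adjusted p = 0.31 by limma). *Cbr1*, a carbonyl reductase, was at 12.64 and 12.68 in the control group and at 13.64 and 13.19 in the MSCT group (difference 0.76; adjusted p = 0.36 by limma). Both MSCT arrays were above both control arrays in both genes, as in 21.3% of all rows. *Cbr1* was not called without MSCT replicate 1 (0.53), control replicate 1 (0.74) or control replicate 2 (0.78).

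None of 7 genes of heme and iron handling was past an unadjusted p of 0.05 by limma (median 0.04). The metallothionein *Mt1*, whose product binds zinc and scavenges radicals, was lower in the MSCT group, at 13.30 and 12.90 against 13.97 and 13.67 (difference -0.72; adjusted p = 0.392 by limma). It was not called with equal array medians (-0.68) or without MSCT replicate 2 (-0.52), control replicate 1 (-0.57) or control replicate 2 (-0.87).

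**Figure D3:**
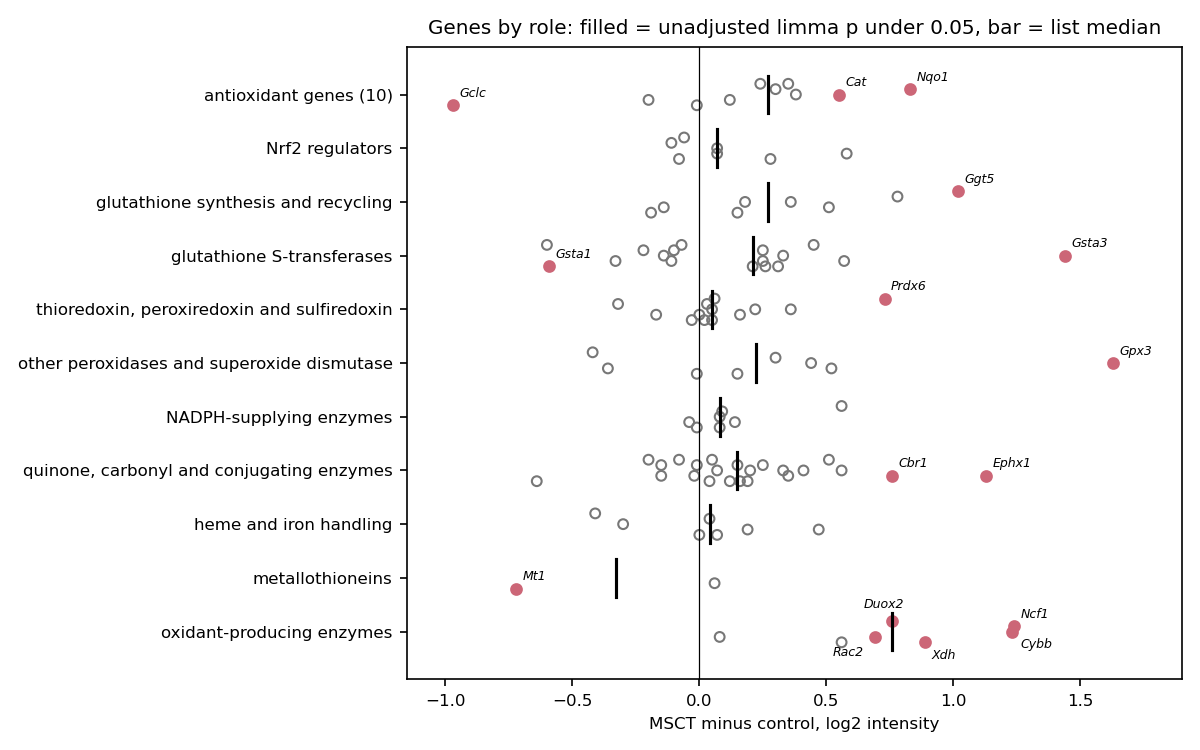
Difference of the MSCT from the control group on the log2 scale (horizontal axis) for the 10 antioxidant genes and 10 lists of related genes (rows). Each circle is a gene, filled where the unadjusted limma p was under 0.05, and black bars are list medians. Filled circles are scattered over the lists and are most frequent among the oxidant-producing enzymes, where 5 of 7 are filled and the median is 0.76.

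On the side of oxidant production, 5 of 7 measured genes were higher at an unadjusted p under 0.05 by limma (71.4%, against 4.80% of all rows), and all 7 differences were above 0. *Cybb* and *Ncf1* encode the catalytic and a cytosolic subunit of the phagocyte NADPH oxidase, which makes superoxide. *Ncf1* was at 7.20 and 7.15 in the control group and at 8.56 and 8.26 in the MSCT group, 2.36-fold higher (difference 1.24, standard error 0.21; adjusted p = 0.26 by limma). Its row is dim, at intensities of 147.4 and 141.6 in the control group, so the fold depends on the unknown background. The difference was 1.49 with the stronger background subtraction, and the row falls among the dimmest 25%. *Cybb* was at 7.49 and 7.65 in the control group and at 8.43 and 9.18 in the MSCT group, 2.35-fold higher (standard error 0.31; adjusted p = 0.324 by limma).

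*Rac2*, a GTPase of blood cells that activates this oxidase, was at 10.48 and 10.85 in the control group and at 11.26 and 11.45 in the MSCT group (difference 0.69, adjusted p = 0.379 by limma). *Xdh*, which encodes xanthine dehydrogenase, was at 10.91 and 10.85 in the control group and at 11.87 and 11.67 in the MSCT group (difference 0.89, adjusted p = 0.295 by limma). *Duox2*, an oxidase of the gut epithelium that releases hydrogen peroxide, was at 10.99 and 11.39 in the control group and at 12.01 and 11.89 in the MSCT group (difference 0.76, adjusted p = 0.351 by limma). In all 5 of these genes both MSCT arrays were above both control arrays, as in 21.3% of all rows. These 5 were already at an unadjusted p under 0.05 on the same arrays, so the separation adds no further support. *Cyba*, the membrane partner of *Cybb*, and *Nox4* overlapped between the groups, with differences of 0.08 and 0.56. *Nox1*, *Duox1* and *Nos2* were blank on all 4 arrays. The count of 5 was 2 without control replicate 1, 2 without MSCT replicate 1 and 3 without MSCT replicate 2, and *Ncf1* was called in all of these fits. The methods' t-test called 2, without *Cybb*, *Duox2* and *Rac2*, and 3 were called without the dimmest 50% of rows, which hold *Ncf1* and *Cybb*. *Rac2*, *Cyba* and *Nox4* were named after their values were seen.

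Markers of macrophages and red blood cells were higher on the same arrays. Of 6 measured markers of macrophages and neutrophils, 4 were higher in the MSCT group at an unadjusted p under 0.05 by limma, against 4.80% of all rows: *Cd68* by 1.29, *Csf1r* by 1.00, *Aif1* by 1.39 and *Lyz2* by 0.88. *Lyz2* was not called without MSCT replicate 2 (0.73) or control replicate 2 (0.69). *Aif1* was not called without either control array (1.48 and 1.30), and its difference was 0.90 to 1.89 with single arrays left out. *Cd14* differed by -0.04 and *S100a9* by 0.54, and *Itgam*, *S100a8* and *Cxcr2* were blank. The summed intensity of the list was 12411 and 13776 in the control group and 14958 and 17729 in the MSCT group. Of 3 measured markers of red blood cells, 2 were higher, *Hbb* by 1.18 and *Hba2* (now *Hba-a2*) by 1.00, the latter not called without MSCT replicate 2 (0.95), and the summed intensity was 5402 and 7004 against 12682 and 12313. The part of these cells in the values of the antioxidant and oxidant-producing genes was not tested. In pieces of tissue, more cells of a type and more RNA per cell cannot be told apart.

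Markers of the labeled tissue were present on all arrays. None of 8 measured markers of colon epithelium and none of 5 of smooth muscle was past an unadjusted p of 0.05 by limma (medians 0.17 and 0.02), with summed intensities of 145702 to 153306 and 160426 to 165202 for epithelium and of 141287 to 171485 and 154976 to 159204 for smooth muscle in the control and MSCT groups. Of 6 genes of enteric neurons and glia, 2 were lower at this threshold, *Uchl1* (-0.54) and *Elavl4* (-1.06). *Uchl1* was not called with any 1 array left out, and of these fits *Elavl4* was called only in that without control replicate 2. Of 5 genes of liver and pancreas, 1 was higher at this threshold, *Cela1* (1.46; 0.94 without MSCT replicate 2), and it was not called without either control array. The other genes of this list overlapped between the groups and lay on both sides of 0, with *Alb* at -0.20 and *Prss1* at -0.50. The median intensities of the arrays lay between 847.6 and 892.7.

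**Figure D4:**
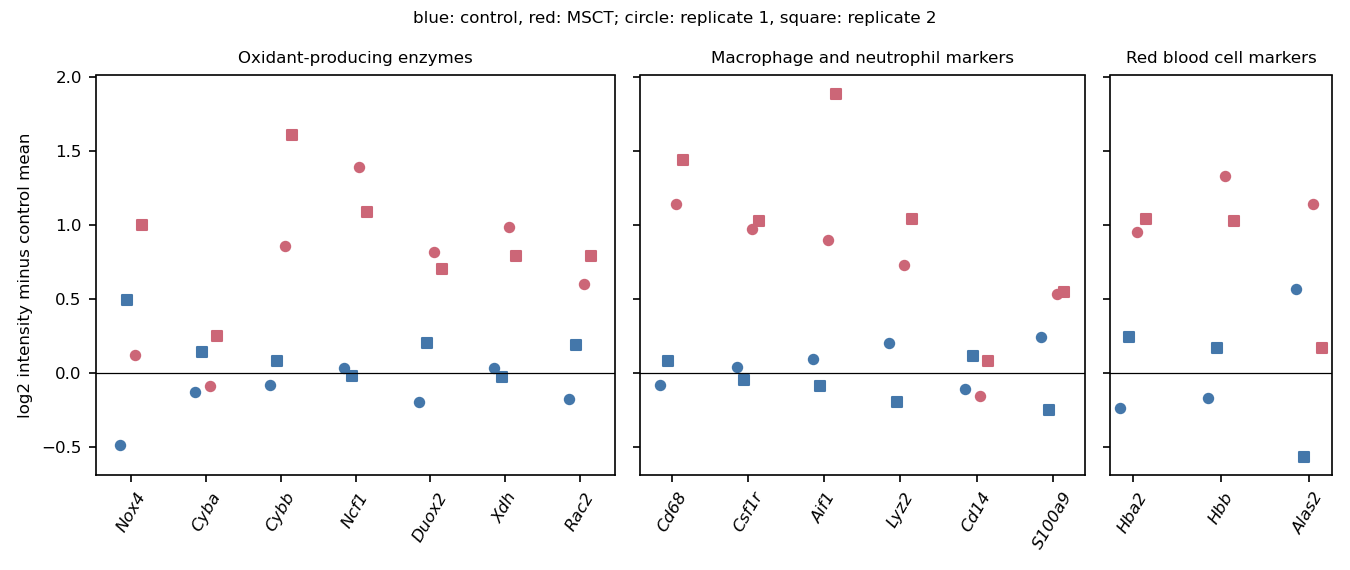
Log2 intensity minus the mean of the control arrays (vertical axis) of the measured oxidant-producing enzymes, macrophage and neutrophil markers and red blood cell markers. Each point is 1 array, blue for control and red for MSCT, circles for replicate 1 and squares for replicate 2. Both red points lie above both blue points in *Ncf1*, *Cybb*, *Xdh*, *Duox2* and *Rac2* and in *Cd68* and *Hbb*, but not in *Cd14*, *Cyba*, *Nox4* or *Alas2*. Of all rows, 21.3% had both MSCT arrays above both control arrays.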

How the data were processed

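Total RNA of colon tissue was copied into cDNA, labeled with Cy3 and hybridized to NimbleGen arrays in a single color. GenePix scans were read out in NimbleScan, and the authors deposited 1 linear intensity per RefSeq transcript and array. The submitters' processing notes name RMA, but array quartiles are close without being identical. Background correction and the reason for blank rows (8070 of 26420, 30.5%) are not given in the sources used here.

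Intensities were used as log2 values with no pseudocount, filter or further scaling. Rows were named with the RefSeq table of GRCr8 (7062 of 18350 measured rows, 38.5%), which was used for names and promoters. For a related gene with several rows, the row with the highest mean was taken. The lmFit and eBayes functions of limma 3.58.1 (R 4.3.3) compared the 2 MSCT with the 2 control arrays over all rows with Benjamini-Hochberg adjustment, and the code was checked on simulated data. Names and figures were made in Python 3.11.15 (matplotlib 3.10.9, pandas 2.3.3). The 10 genes and the lists of related genes and markers were chosen with earlier results of these data known. Named are the 10 genes, up to 4 related genes of each list and direction at an unadjusted p under 0.05, *Nfe2l2*, *Keap1* and markers at that threshold, beside genes given as blank, overlapping or examples of a list. Alternatives were equal array medians, quantile normalization, dim rows left out, the methods' t-test, a stronger background subtraction and the replicate number as a block. Others were each array left out, another fold limit, linear means and a variance that depends on intensity. The fit with the intensity-dependent variance also used the robust option of eBayes. All 4 value columns were used. The number of arrays limits the precision.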

Additional observations from a re-analysis of the deposited data

How the results depend on the processing

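When single arrays were left out, the difference was -1.23 to -0.72 for *Gclc*, 0.68 to 0.99 for *Nqo1*, 0.41 to 0.68 for *Cat*, -0.09 to 0.07 for *Sod1* and -0.17 to 0.32 for *Keap1*. *Cyba* ranged from -0.10 to 0.25. *Sod1* was also 0.03 with equal array medians. By the methods' t-test *Gclc* (-0.97), *Nqo1* (0.83) and *Cat* (0.55) had a p above 0.05, so 0 of the 10 genes were called. *Cat* was also above 0.05 after quantile normalization (0.53) and the stronger background subtraction (0.55). With an intensity-dependent variance and the robust option of eBayes together, *Gpx1* (0.30) came under 0.05. In that fit *Gclc* alone of the 10 passed an adjusted p of 0.05 (0.0401 by limma, with 387 of all rows), and *Nqo1* was at 0.0637. The count of 3 called genes was 0 to 2 with an array left out (0 without MSCT replicate 1, 1 without control replicate 1). Past the screen were 0 to 1 with an array left out and 2 (*Gclc* and *Nqo1*) at a limit of 1.5-fold, and 0 passed an adjusted p of 0.05 in any of these fits.

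Over all rows, 2196 were at an unadjusted p under 0.05 and 1328 to 2688 with an array left out. Past an adjusted p of 0.05 by limma were 0 rows with all rows kept and the intensity-independent variance, 4 without the dimmest 25% of rows and 247 without the dimmest 50%. Past the screen were 850 rows with the limma p and 388 by the methods' t-test. With the limma p, they were 934 to 1565 with an array left out, 251 without the dimmest 50% and 2019 at 1.5-fold. Of the 99 related genes 13 were called, 7 to 15 with an array left out, 3 by the methods' t-test (without *Gpx3* and *Ephx1*, among others) and 22 with the intensity-dependent variance. The median of the 10 genes was 0.15 to 0.26 with an array left out. With the replicate number as a block, which the labels give without a shared litter or day (correlation of same-numbered deviations 0.23), *Cat* (0.55) and *Gsta1* (-0.59) had a p above 0.05 and *Nox4* (0.56) one under it, and 2 of the 10 genes and 1 glutathione S-transferase were called. None of the 10 genes had another measured row, so no other row was tried. *Gclc* stayed lower, and *Nqo1* and *Cat* higher, under every alternative run.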
